A study of Mus musculus with 6 samples.

Results

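The mouse genes named Zfp followed by a number carry the historical symbol for zinc finger proteins. They were taken as the rows of the gene count table with such a symbol and a mean of 500 or more counts over the 6 libraries, which gave 295 of the 360 Zfp genes, in a table of 23420 genes. The level minimum used no difference between genotypes. Nearest above it were Zfp114 and Zfp947, with means of 502.33 and 509.83 counts, and nearest below it Zfp72 and Zfp472, with 485.83 and 485.5. Of the 65 genes below the minimum, 50 could be tested and 1 of them was called higher.

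The libraries hold ribosome-bound RNA that was pulled down from mouse cerebella (C57BL/6, 4 weeks old). The method, BacTRAP, recovers a tagged ribosomal protein that is expressed in a chosen cell type, here under Pcp2, a Purkinje neuron gene. All animals carried Pcp2-BacTRAP. The 3 control animals were Rbm17 f/+, with a floxed and a wild-type allele and no Cre, and the 3 cKO animals were Pcp2-Cre; Rbm17 f/-, with a floxed and a null allele. Cre and the null allele occurred only in cKO, so their parts in a difference cannot be told apart from the loss of Rbm17 in Purkinje neurons, and each library came from 1 cerebellum. RBM17 is a splicing factor of 3′ splice site recognition, and the series title names cryptic splicing, so the question put to the Zfp genes was how far their levels and splice junctions differed in cKO.

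Most Zfp proteins bind DNA through tandem C2H2 fingers, in each of which a pair of cysteines and a pair of histidines hold a zinc ion. Many also carry a KRAB box, which recruits the corepressor TRIM28 and the histone methyltransferase SETDB1 to silence retroelements and other targets, and some carry a SCAN domain, which joins such proteins into dimers. Many of the genes lie in tandem clusters of similar sequence. In a typical member, short upstream exons encode the KRAB box and 1 long last exon encodes all the fingers.

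Each library held between 140110897 and 160571518 gene counts and between 73457422 and 83976095 junction reads. Rbm17 stood at 41.2, 42.5 and 41.3 CPM (counts scaled to equal library sizes) in control and at 25.7, 25.6 and 26.3 in cKO (log2 fold change -0.69, SE 0.09; edgeR quasi-likelihood test, adjusted p = 0.0016). Of 12 Purkinje markers, 8 were lower in cKO, and their summed level was 32790 to 43840 CPM in control and 19900 to 22860 in cKO. Of 12 microglial and macrophage markers, 6 were higher, and their sum was 42.8 to 66.5 CPM in control and 89.9 to 153.5 in cKO. No marker of either list was at 0. The part of these shifts in the Zfp results was not tested, and in pulled-down RNA fewer cells of a type and less RNA per cell cannot be told apart. Markers of other cell types were also present, with overlapping groups. Their sums in control and cKO were 4177 to 5796 and 3536 to 5785 CPM for granule cells. They were 2844 to 4243 and 2245 to 3292 for oligodendrocytes, and 1579 to 2082 and 1192 to 1636 for astrocytes and Bergmann glia.

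At gene level the Zfp genes were called about as often as other genes. Of the 295 genes, 14 rose in cKO and 7 fell (edgeR's quasi-likelihood test, Benjamini-Hochberg adjusted p under 0.05 over 16067 genes). These 7.12% compare with 7.87% of all genes tested and with 9.45% of the genes that met the same level minimum. By direction, 4.75% of the Zfp genes rose against 4.03% of all genes, and 2.37% fell against 3.85%. The median log2 fold change was 0.04 in Zfp genes, 0.01 in all genes tested and -0.025 in all genes of that level. It was above 0 in 168 of the 295 Zfp genes and in 5162 of the 11253 genes of that level. The median absolute change was 0.15, against 0.16 in all genes of that level. The groups did not overlap in 84 Zfp genes, or 28.5%, a share near the 28.4% of all genes. Of the 84, 56 were higher and 28 lower in cKO, where 2411 and 2148 of all genes were. This tilt towards higher levels was not tested. Only Zfp408 and Zfp750 differed by more than 1 on the log2 scale. Left out in turn, control replicates 1, 2 and 3 left 16, 7 and 13 called genes, and cKO replicates 1, 2 and 3 left 10, 10 and 8. Zfp869, Zfp365, Zfp414, Zfp408, Zfp930, Zfp286 and Zfp672 were called in all 6 of these fits.

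**Figure D1:**
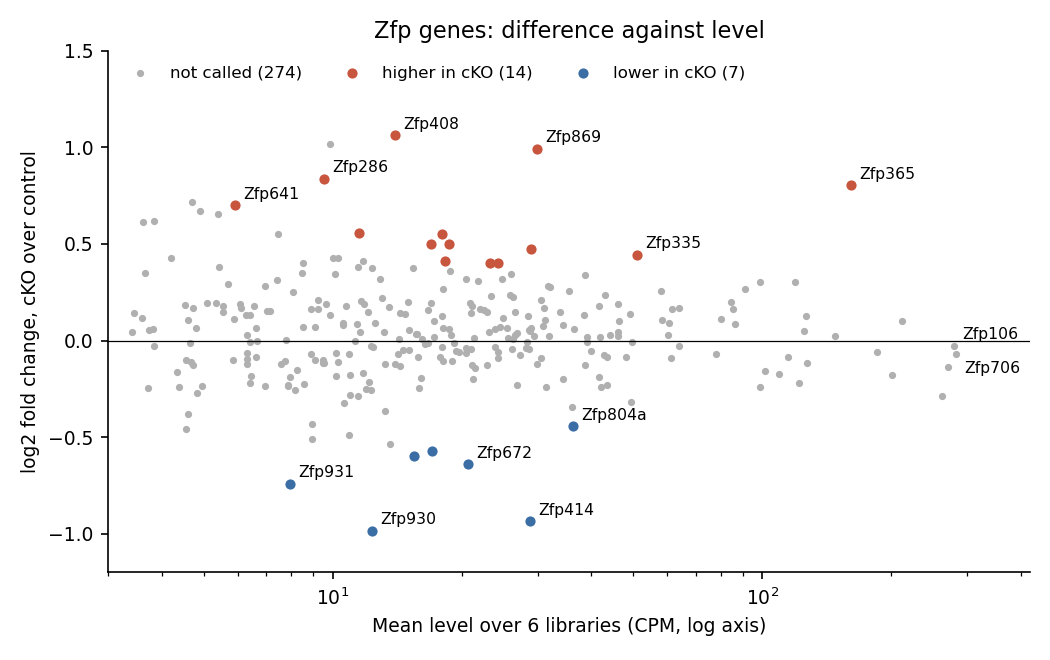
Each point is 1 of the 295 Zfp genes, with its mean level in CPM on a log axis and its log2 fold change of cKO over control. The 14 genes called higher are red and the 7 called lower are blue, and the genes with the highest levels, Zfp706 and Zfp106, lie near 0.

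Levels were low for most members. Mean levels ran from 3.40 to 282.3 CPM with a median of 16.7, 198 genes lay under 25 CPM and 17 lay over 100. The 4 members with the highest mean CPM were not called. Zfp706, described as a repressor of Klf4 in embryonic stem cells, had 303.0, 280.0 and 284.4 CPM in control and 256.5, 295.1 and 275.2 in cKO, and its groups overlapped. Zfp106, which encodes an RNA-binding protein needed by motor neurons, had 287.7, 279.9 and 279.9 CPM in control and 294.0, 272.4 and 266.1 in cKO. Zfp385a and Zfp385c belong to a small family of RNA-binding zinc finger genes. Their levels were 265 to 302 and 248 to 341 CPM in control and 247 to 267 and 221 to 250 in cKO, overlapping in both genes. Per kilobase of exon the order was Zfp385a, Zfp385c and Zfp706, at 108.0, 84.6 and 56.7 CPM per kilobase, then Zfp365 at 30.9.

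Among the genes with a KRAB box, Zfp869 and Zfp930 moved in opposite directions although both lie in 1 stretch of 5 Zfp genes on chromosome 8. Zfp869 (mm10 chr8:69706332-69710724, minus strand, 13 fingers) had 21.0, 19.0 and 19.9 CPM in control and 42.2, 38.3 and 38.8 in cKO. Every cKO library lay well above every control library, and no Zfp gene had a smaller p (log2 fold change 0.99, SE 0.10; edgeR quasi-likelihood test, adjusted p = 0.00042). Zfp930 (chr8:69209038-69230536, plus strand, 12 fingers) had 18.04, 14.85 and 16.19 CPM in control and 7.10, 8.55 and 9.17 in cKO. All cKO libraries were lower than all control libraries (log2 fold change -0.98, SE 0.14; edgeR adjusted p = 0.003). The other 3 genes of the stretch were not called, among them Zfp868, whose level was 30.7 to 36.3 CPM in control and 34.4 to 36.4 in cKO.

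Zfp286 is a KRAB gene of low level (chr11:62752577-62789462, minus strand, 10 fingers). It had 6.51, 6.15 and 7.82 CPM in control and 12.6, 13.1 and 10.9 in cKO, with no overlap (log2 fold change 0.84, SE 0.15; edgeR quasi-likelihood test, adjusted p = 0.0094). Zfp809, which recognises the primer binding site of murine leukaemia virus and silences such proviruses, rose from 27.2, 21.8 and 23.6 to 34.3, 35.4 and 31.2 CPM (log2 fold change 0.48, edgeR adjusted p = 0.031). It was the only member of 5 in a list of imprinting and retroelement silencing genes to be called. Such a short list cannot be compared with the 7.87% of all genes. Zfp809 lost the call when any library but control replicate 1 was left out. Other called KRAB genes were higher for Zfp605, Zfp81, Zfp157, Zfp874a, Zfp641 and Zfp688, by 0.40 to 0.70 on the log2 scale, and lower for Zfp599 and Zfp931, at -0.60 and -0.74. Each of these 8 lost its call in at least 4 of the 6 fits with 1 library left out.

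Taken by protein type, 160 members encode a KRAB box in a protein-coding transcript and 133 do not, while 2 have no protein-coding transcript. Of the KRAB genes 10 rose and 3 fell, and of the others 4 rose and 4 fell. The medians of the log2 fold change were 0.06 and 0.02, and the difference between the types was not tested. KRAB genes also had the lower levels, with medians of 12 and 24.5 CPM. The 12 genes with a SCAN domain had 0 calls in the edgeR test, where 7.87% of all genes were called. They are too few to compare with that share. By finger number, 3 rose and 2 fell among 123 genes with 12 or more fingers, 7 rose and 2 fell among 108 with 6 to 11, and 3 rose and 3 fell among 52 with 1 to 5.

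Outside the KRAB class the largest levels among called genes were those of neural genes. Zfp365 encodes DBZ, a binding partner of DISC1 that is known for roles in neurite outgrowth (chr10:67886103-67912662, minus strand). It had 121.3, 120.2 and 109.3 CPM in control and 229.8, 186.0 and 197.5 in cKO. The groups were far apart (log2 fold change 0.81, SE 0.10; edgeR quasi-likelihood test, adjusted p = 0.0015). Zfp335, which is needed in neural progenitors and whose human counterpart is a microcephaly gene, had 42.6, 42.3 and 44.8 CPM in control and 59.1, 63.2 and 54.1 in cKO (log2 fold change 0.44, edgeR adjusted p = 0.018). Zfp804a, whose human counterpart is a schizophrenia risk gene, moved down from 42.6, 41.1 and 41.4 to 31.5, 28.1 and 32.5 CPM (log2 fold change -0.44, edgeR adjusted p = 0.021). In neither of these genes did the groups overlap, but Zfp335 lost its call in 2 and Zfp804a in 3 of the 6 fits without 1 library. In the list of neural development genes, 2 of 11 members rose and 1 fell. This makes 27.3%, against 7.87% of all genes tested, in a list too short for a firm comparison.

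Zfp408, whose human counterpart is linked to a disease of retinal vessels, showed the largest rise (chr2:91643669-91649791, minus strand, 11 fingers). It had 8.48, 9.03 and 9.67 CPM in control and 23.1, 16.0 and 17.6 in cKO (log2 fold change 1.06, SE 0.16; edgeR quasi-likelihood test, adjusted p = 0.0029). Zfp414, a short gene with 2 fingers (chr17:33629090-33631779, plus strand), had 40.6, 32.8 and 39.9 CPM in control and 16.8, 21.8 and 20.7 in cKO (log2 fold change -0.94, SE 0.13; edgeR adjusted p = 0.0024). Zfp672, with 14 fingers, moved from 27.1, 23.7 and 24.8 to 14.6, 16.0 and 17.9 CPM (log2 fold change -0.64, edgeR adjusted p = 0.0094). In all 3 genes the groups lay apart. Zfp580 was lower by a log2 fold change of -0.57, with its call lost in 4 of the 6 fits.

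Zfp410 is known for activating Chd4, a core gene of the NuRD repressor complex, with little effect on other genes. It rose from 20.5, 19.9 and 19.8 to 27.7, 26.5 and 25.2 CPM (log2 fold change 0.40, SE 0.10; edgeR quasi-likelihood test, adjusted p = 0.036), a call that was lost without any 1 of the 6 libraries. It was the only 1 of 27 members in a list of transcription and chromatin regulators to be called, or 3.7%. Zfp740 of the same list had 31.6, 34.6 and 36.5 CPM in control and 47.8, 42.8 and 39.3 in cKO, and missed the threshold (edgeR adjusted p = 0.087). Of 12 RNA-binding members 0 were called in the edgeR test, again too few genes to compare with the 7.87% of all genes. Zfp36, which encodes tristetraprolin, a protein that binds AU-rich elements and speeds mRNA decay, had 4.54, 4.84 and 3.24 CPM in control and 6.19, 6.71 and 6.94 in cKO (log2 fold change 0.65, edgeR adjusted p = 0.073). In the list of imprinting and retroelement silencing genes, Zfp568, a repressor of the placental Igf2 promoter, had 7.02, 7.48 and 10.9 CPM in control and 8.23, 6.53 and 6.90 in cKO, which overlap. Of the uncalled genes, Zfp750, an epidermal differentiation gene, came nearest at 7.95, 6.74 and 4.82 CPM in control and 18.2, 8.28 and 12.9 in cKO (log2 fold change 1.02, edgeR adjusted p = 0.050). Zfp618 and Zfp951 had log2 fold changes of 0.72 and 0.67 with adjusted p of 0.11 and 0.080 in the same edgeR test.

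**Figure D2:**
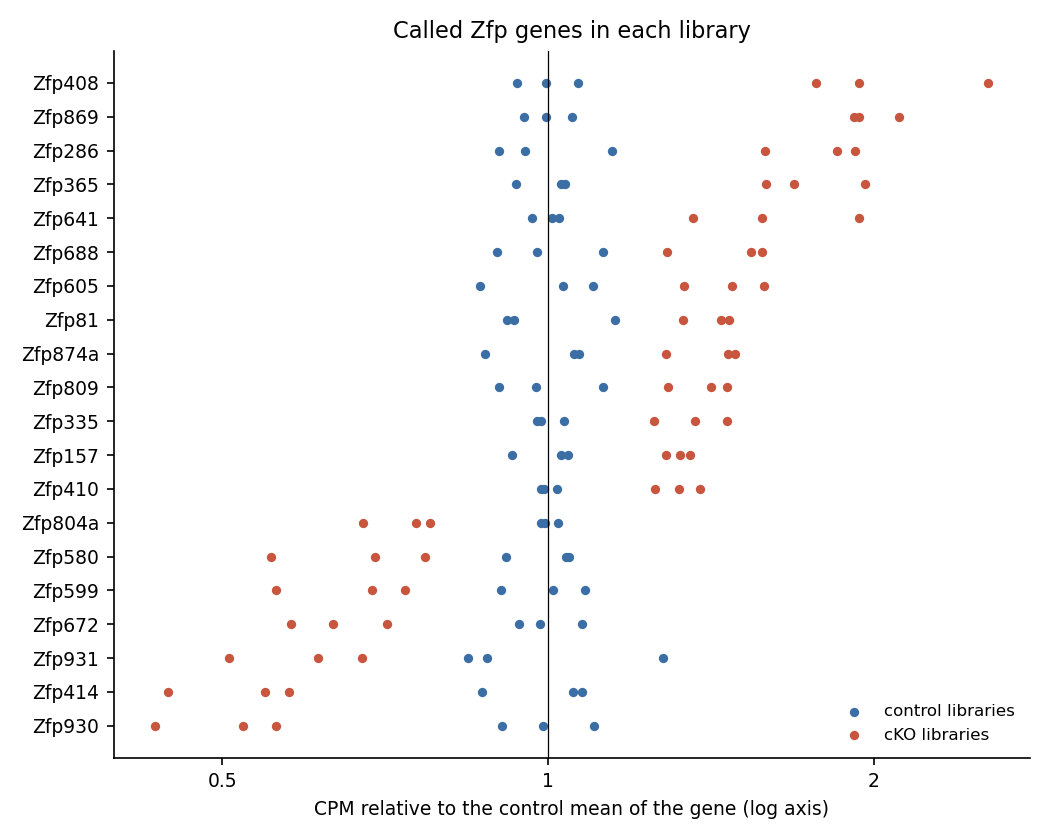
Each row is 1 of 20 of the 21 called Zfp genes, and each point is 1 library, plotted as its CPM relative to the control mean of that gene on a log axis. Control libraries (blue) and cKO libraries (red) do not overlap in any of these genes, and the spread within cKO is widest for Zfp408.

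Among the partners of KRAB proteins, 35 genes of the corepressor and heterochromatin machinery were tested. Of these 1 was called, Cbx1, which encodes the heterochromatin protein HP1 beta. This is 2.86%, against 7.87% of all genes tested, and the gap was not tested. The median log2 fold change of the list was 0.10, and 4 of the 35 had an unadjusted p under 0.05 in the edgeR test. Cbx1 stood at 16.4, 15.9 and 18.9 CPM in control and at 26.6, 24 and 24.9 in cKO (log2 fold change 0.56, edgeR quasi-likelihood test, adjusted p = 0.015). Trim28 had 125.0 to 142.0 CPM in control and 144.0 to 160.0 in cKO, without overlap. It was not called (log2 fold change 0.18, edgeR adjusted p = 0.28), nor was Setdb1 (log2 fold change -0.09, edgeR adjusted p = 0.74). Among 107 tested genes with other zinc finger names, such as Zbtb, Zscan or Klf, Zkscan5 rose and Zbtb46 fell. This makes 1.87%, against 7.87% of all genes tested. The summed level of the 295 Zfp genes was 8416.5 to 8930.9 CPM in control and 8705.2 to 9004.1 in cKO, and the groups overlapped.

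Splice junctions outside the annotation held more of the Zfp reads in each cKO library than in any control library. The deposited junction lists held 5287 junctions in 294 members, of which 2056 are annotated introns. The share of junction reads on unannotated introns was 3.44%, 3.06% and 2.98% in the control libraries and 4.23%, 3.83% and 3.88% in the cKO libraries. Every cKO library lay above every control library, with means of 3.16% ± 0.25 and 3.98% ± 0.22 (SD, n = 3 each) and an exact two-sided permutation p of 0.1, the smallest that 3 libraries against 3 can give. In all genes of the same level the shares were 1.17% ± 0.17 and 1.38% ± 0.038 (SD, n = 3 each), so Zfp genes had the higher unannotated share in both genotypes. Junction reads in Zfp genes numbered 342159 to 353911 per control library and 379439 to 422221 per cKO library, and the part of this depth gap in the counts of junctions was not tested.

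**Figure D3:**
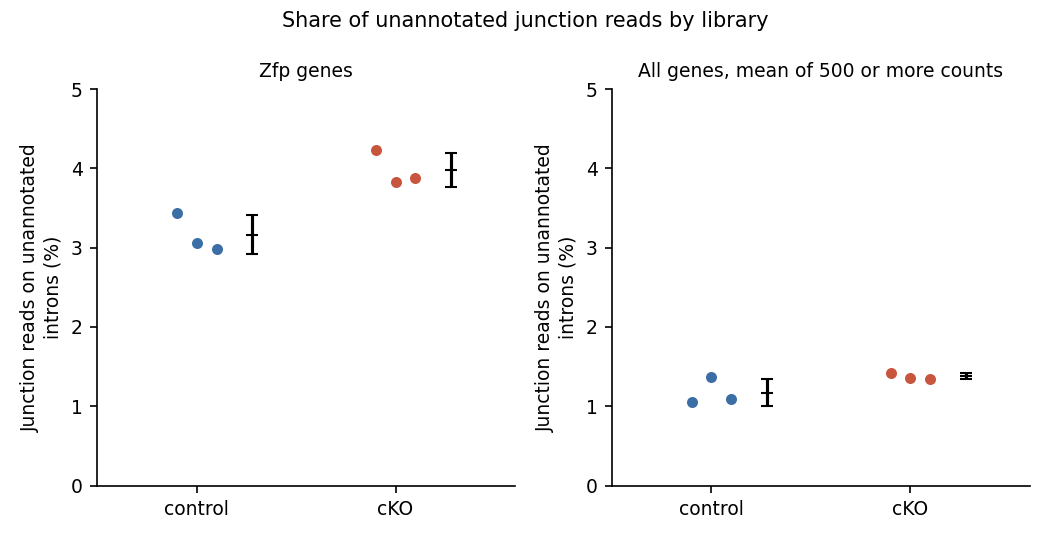
Points are the percentages of junction reads on unannotated introns in each of the 6 libraries, for Zfp genes (left) and for all genes with a mean of 500 or more counts (right), and bars are the mean ± SD. In Zfp genes the control libraries run from 2.98% to 3.44% and the cKO libraries from 3.83% to 4.23%.

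A junction was counted as new when it had 0 reads in the 3 control libraries, at least 1 read in each cKO library and at least 10 in all, and as lost when the same held with the groups exchanged. There were 97 new junctions in 65 Zfp genes and 12 lost junctions in 10. The new ones held 3488 cKO reads and the lost ones 176 control reads. New junctions occurred in 22.0% of Zfp genes and in 20.7% of all genes of the same level, and lost ones in 3.39% and 3.29%. Both shares were near the background. Of the 97, 45 join an annotated donor to an unannotated acceptor, 21 an unannotated donor to an annotated acceptor, 12 join 2 annotated sites in a new pairing, 4 have neither site annotated and 15 are annotated introns. A further 6 new junctions could belong to more than 1 gene and were left out. New junctions were found in 46 of the 160 KRAB genes (28.7%), in 19 of the 133 genes without a KRAB box (14.3%) and in 5 of the 12 with a SCAN domain. New junctions were found in 7 of the 21 called genes and in 58 of the 274 uncalled ones. All 7 called genes with a new junction were higher in cKO, among them Zfp286, Zfp157, Zfp410, Zfp605, Zfp688 and Zfp874a. None of the 7 lower genes had one. The rule needs 10 reads in cKO and 0 in control, so a gene that rises meets it more easily than one that falls. A link between new junctions and level was therefore not tested.

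Junctions were also tested as shares of their cluster, the junctions that share a donor or an acceptor. A raised rare junction had under 5% of its cluster in control, a rise of at least 5 percentage points and an adjusted p under 0.05 in edgeR's junction test (diffSpliceDGE). Of 2178 junctions tested in 262 Zfp genes, 18 rose and 3 fell by 5 points or more with such a p, where 0.751% of all junctions were called. Among them were 17 raised rare junctions in 16 genes. This is 0.781% of junctions and 6.11% of genes, against 0.576% of all junctions and 4.61% of all genes of that level. Lowered rare junctions numbered 2, or 0.0918% of those tested in Zfp genes, against 0.0393% of all junctions. Without control replicate 1, 2 or 3 the raised rare junctions numbered 6, 10 and 9, and without cKO replicate 1, 2 or 3 they numbered 6, 11 and 6. In these 6 fits the junction of Zfp281 and the one into the new exon of Zfp286 kept their calls, and the other raised rare junctions lost theirs in 1 to 6 fits.

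**Figure D4:**
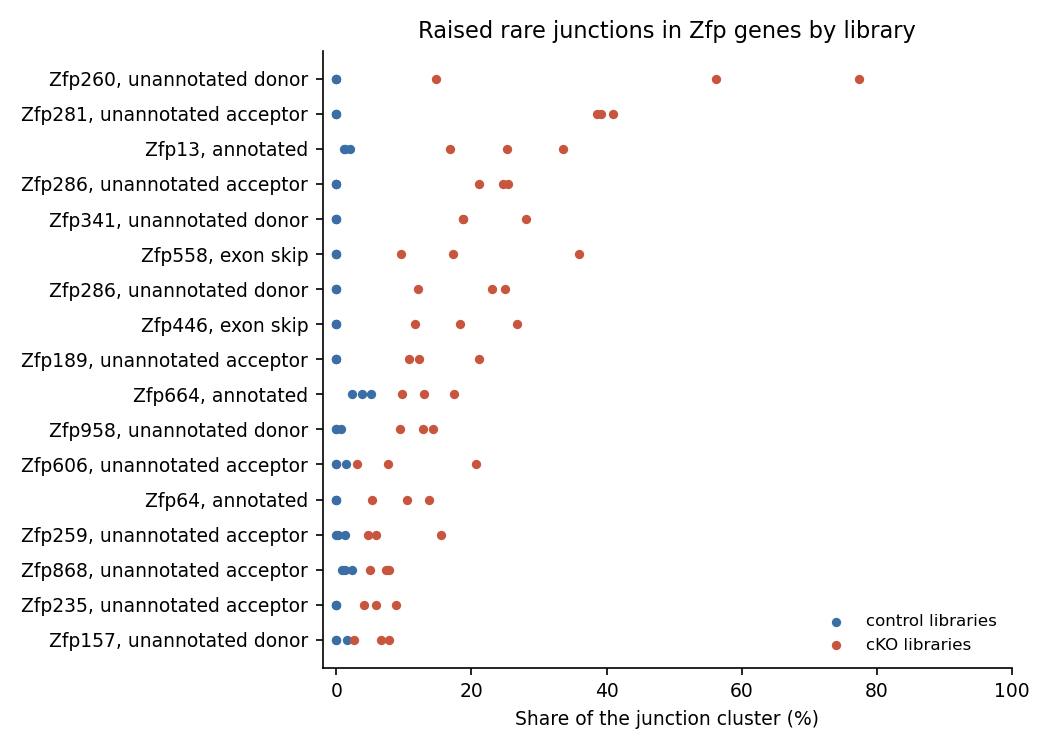
Each row is 1 of the 17 raised rare junctions, named by its gene and by which of its splice sites the annotation lacks, and each point is 1 library's share of the junction cluster in percent. Control libraries (blue) lie at or under 5.15% in every row, and the cKO libraries (red) spread most for Zfp260 and least for Zfp281.

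The clearest new exon lay in intron 3 of Zfp286, which also rose at gene level. It is 24 bp long (mm10 chr11:62787747-62787770, minus strand), between the coding exons 3 and 4. The junction into it had 0, 0 and 0 reads in control and 40, 43 and 44 in cKO, and the junction out of it 0, 0 and 0 and 23, 42 and 41. The junction that joins exons 3 and 4 directly had 75, 56 and 106 reads in control and 117, 63 and 90 in cKO, so the ordinary product remained in every cKO library. Estimated from these reads, the exon was included in 21.2%, 40.3% and 32.1% of cKO transcripts, a mean of 31.2% ± 9.6 (SD, n = 3), and in none seen in control, where 0 reads allow up to 1.27%. As a share of its cluster the junction into the exon reached 23.7% ± 2.4 (SD, n = 3; edgeR junction test, adjusted p = 0.003), and the junction out of it 12.1%, 24.9% and 23.0% (adjusted p = 0.007 in the same edgeR test). The first was called in all 6 fits without 1 library, the second in 4. A GENCODE transcript covers this stretch of intron, so its sequence could be read. It is shown because RBM17 acts at 3′ splice sites: the whole exon, then 24 intronic and 6 exonic bases at its acceptor and 6 exonic and 24 intronic bases at its donor, with the intron's last or first 2 bases in capitals.
Zfp286 new exon: tatttcttgtctctctacaggcag
Zfp286 acceptor of the new exon: atagtatctctcttctccatctAGtatttc
Zfp286 donor of the new exon: aggcagGTaagtcacatttctcttctttcc

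**Figure D5:**
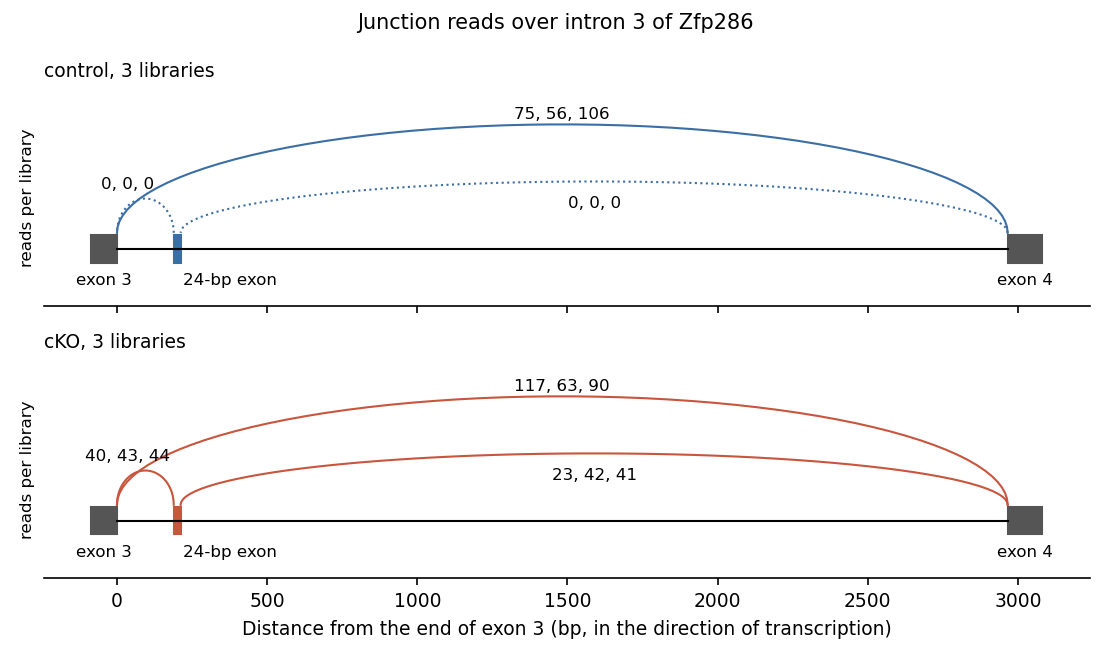
The map shows intron 3 of Zfp286 to scale, by distance in bp from the end of exon 3, with 1 arc for each junction and its reads in libraries 1, 2 and 3. Dotted arcs in control mark the 2 junctions of the 24-bp exon with 0 reads, which have 40, 43, 44 and 23, 42, 41 reads in cKO.

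The other raised rare junctions to unannotated acceptors in KRAB genes took smaller shares. In Zfp235 (intron 1, chr7:24134488-24135141) the junction had 0 reads in control and 18, 24 and 41 in cKO, or 6.23% ± 2.4 of its cluster (SD, n = 3; edgeR junction test, adjusted p = 0.014), and the call was lost in 4 of the 6 fits without 1 library. In Zfp868 (intron 4, chr8:69612578-69613393) the reads were 13, 29 and 8 in control and 125, 83 and 139 in cKO, a rise from 1.50% ± 0.79 to 6.68% ± 1.5 (adjusted p = 0.021 in the same edgeR test). The cluster, with 3199 reads in control, also held a junction of the neighbouring gene Zfp869, which rose at gene level. These shares are therefore not of Zfp868 alone. The change of 5.18 points was lost as a call in 4 of the 6 fits. With a minimum of 20 reads it was 8.17 points and not called (edgeR adjusted p = 0.08), and with 50 reads 16.3 points. In Zfp606 (intron 4, chr7:12481027-12483525) they were 0, 0 and 3 and 70, 7 and 23, so the cKO libraries differed widely among themselves. Its change of 10.0 points was 4.9 without cKO replicate 1, and the call was lost in 5 of the 6 fits. The acceptors of Zfp235 and Zfp606, and those of new junctions in Zfp945 and Zfp369 that were not raised rare junctions, lie in sequence that annotated transcripts cover. They are shown beside that of Zfp286 for comparison, each as 24 intronic and 6 exonic bases with the intron's last 2 bases in capitals.
Zfp235: gagccttacactactgattagcAGgaagca
Zfp606: taataataaaacctcctcctacAGtttcaa
Zfp945: taaaggatctgtttcttattcaAGacaaca
Zfp369: tgttgattttttttccctttctAGgtgcat

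Unannotated donors were raised in Zfp157, Zfp958 and Zfp341. In Zfp157, a called KRAB gene, the junction from intron 3 to exon 4 had 0, 7 and 0 reads in control and 69, 53 and 26 in cKO, a rise from 0.528% ± 0.91 to 5.64% ± 2.7 of the cluster (SD, n = 3; edgeR junction test, adjusted p = 0.022). The change of 5.11 points was 14.7 with a minimum of 50 reads. In Zfp958 the junction from intron 1 to exon 2 had 0, 1 and 0 and 37, 24 and 35 reads, at 12.2% ± 2.5 of the cluster in cKO (adjusted p = 0.015, same edgeR test). Both calls were lost in 4 of the 6 fits without 1 library. Zfp341, a regulator of STAT3 transcription, gained a 96-bp exon in intron 1 (chr2:154618276-154618371), with 2, 18 and 6 reads at its acceptor and 13, 25 and 14 at its donor in cKO and 0 in control. Its inclusion was 12.2%, 31.9% and 15.4% in the cKO libraries. In none of the control libraries was a read seen, and 0 reads allow an inclusion of up to 1.86%. Its donor junction was called (edgeR junction test, adjusted p = 0.036) but not in any of the 6 fits without 1 library.

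Exon skipping with 0 control reads was seen in Zfp446, Zfp558 and Zfp644. Zfp446, which has a SCAN domain, a KRAB box and 3 fingers, skipped exon 3 of 6 (chr7:12979451-12979646, plus strand). The exon has 196 coding bases, which is not a multiple of 3. The skipping junction had 21, 13 and 69 reads in cKO and took 18.9% ± 7.5 of its cluster (SD, n = 3; edgeR junction test, adjusted p = 0.0015), a call lost only without cKO replicate 3 among the 6 fits. Inclusion of the exon was 69.1%, 79.0% and 57.8% in cKO, and in control skipping of up to 1.71% is allowed by 0 reads. At gene level Zfp446 had 8.07 to 9.17 CPM in control and 11.3 to 12.4 in cKO and was not called (edgeR adjusted p = 0.080). The exon is printed whole since it is the stretch absent from the skipped product, and then the bases that the skipping junction joins, the last 15 of exon 2 in lower case and the first 15 of exon 4 in capitals.
Zfp446 exon 3: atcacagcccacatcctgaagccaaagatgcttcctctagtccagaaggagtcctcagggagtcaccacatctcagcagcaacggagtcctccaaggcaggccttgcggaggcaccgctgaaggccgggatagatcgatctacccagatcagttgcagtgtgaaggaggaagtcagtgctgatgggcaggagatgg
Zfp446 exon 2 to exon 4: cagctgctgggctggTATCTCCAAGTGCCC

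Zfp644, which encodes a partner of the histone methyltransferases G9a and GLP, skipped exon 4 of 6, which has 606 coding bases, a multiple of 3. The skipping junction had 45, 85 and 36 reads in cKO and a small share of its cluster, 4.32% ± 2.3 (SD, n = 3; edgeR junction test, adjusted p = 1e-06), short of the 5 points that a raised rare junction needed. Inclusion of the exon was 93.3%, 86.0% and 94.3% in cKO. Zfp558 skipped exon 3, with 36, 11 and 9 reads and 47.1%, 82.5% and 70.5% inclusion, and its cKO libraries were far apart. The change of 21.0 points was 13.4 without cKO replicate 1, and the call was lost in 4 of the 6 fits. In Zfp410, Zfp511 and Zfp595, skipping junctions with 0 control reads left an inclusion of 96.9% ± 0.47, 95.7% ± 0.81 and 87.5% ± 7.5 (SD, n = 3) in cKO. Zfp384 joined exon 3 to exon 7 in 14, 34 and 17 cKO reads, with 0 in control. The bases joined in Zfp644 and Zfp558 are shown to place these events, the last 15 before the junction in lower case and the first 15 after it in capitals.
Zfp644 exon 3 to exon 5: aacgagttagaaaagCCATAGATTGTAAGC
Zfp558 exon 2 to exon 4: atttcatgtaaccagCTCAGTCTTCTCTGT

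Zfp281 and Zfp189 had new junctions that leave the gene. In Zfp281, a transcriptional regulator of pluripotency, reads joined the donor of exon 1 to an unannotated acceptor downstream of the gene (chr1:136625052-136675141, plus strand), past the only other exon, which is the last and holds 4786 bp. The reads were 27, 34 and 20 in cKO and 0 in control, and the share was 39.6% ± 1.2 (SD, n = 3; edgeR junction test, adjusted p = 0.005). The 3 cKO libraries agreed closely, and the call was made in all 6 fits without 1 library. The gene level did not follow, with 39.3 to 43.6 CPM in control and 40.3 to 43.7 in cKO. In Zfp189 the donor of exon 2 was joined past the last exon to a site outside the gene (chr4:49522483-49574269, plus strand) in 21, 22 and 24 cKO reads and 0 control reads. This junction took 14.7% ± 5.5 (SD, n = 3; edgeR junction test, adjusted p = 0.025), and its call was lost in each of the 6 fits without 1 library. In both genes the exon that is passed over is the one that follows directly and the last of the transcript. Zfp68 had such a junction at 1.32% ± 0.73 of its cluster (SD, n = 3). New junctions that leave the gene were not particular to these genes. Among others, Zfp13, Zfp937 and Zfp874a had one at 12.4%, 10.4% and 4.37% of the cluster, and Zfp418 had several at 6.67% to 9.75%. Their adjusted p ran from 0.051 to 0.41 in the edgeR junction test, so none of them was called.

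Annotated junctions shifted in Zfp664, Zfp90, Zfp13 and Zfp64. In Zfp664, the junction from exon 3 past the last exon of the main transcript had 43, 37 and 23 reads in control and 206, 129 and 130 in cKO, a rise from 3.76% ± 1.4 to 13.4% ± 3.9 (SD, n = 3; edgeR junction test, adjusted p = 0.015). The change of 9.63 points was 17.4 with a minimum of 20 or 50 reads, and the call was lost in 4 of the 6 fits without 1 library. In Zfp90, a KRAB gene, 1 annotated junction that starts in exon 3 moved from 61.6% ± 2.3 to 23.5% ± 4.1 of its cluster (edgeR junction test, adjusted p = 0.022) and another that starts in exon 4 from 17.0% ± 0.50 to 49.9% ± 4.1 (adjusted p = 0.040 in the same edgeR test; SD, n = 3). Both ends of this exchange were annotated, and the gene level was 21.0 to 25.7 CPM in control and 17.4 to 22.3 in cKO. In Zfp13 an annotated junction out of exon 2 had 1, 1 and 2 reads in control and 53, 13 and 37 in cKO. Its share moved from 1.46% ± 0.43 to 25.3% ± 8.3 (SD, n = 3; edgeR junction test, adjusted p = 0.036), and the call was lost in 5 of the 6 fits. Zfp64 gained an annotated junction out of exon 5 with 11, 28 and 18 cKO reads and 0 control reads, a call also lost in 5 of the 6 fits. Zfp259, now called Zpr1 and known as a partner of the SMN protein, has no C2H2 finger by the pattern used, and its unannotated acceptor in intron 12 rose from 0.504% ± 0.67 to 8.67% ± 5.9 (SD, n = 3; edgeR junction test, adjusted p = 0.031). The change of 8.16 points was 4.75 without cKO replicate 1, and the call was lost in 5 of the 6 fits.

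Both lowered rare junctions were in KRAB genes. In Zfp930, the gene with the largest fall, the annotated junction that skips the 58-bp exon 3 had 53, 69 and 47 reads in control and 0, 10 and 8 in cKO. Its share moved from 22.5% ± 5.0 to 2.32% ± 2.2 (SD, n = 3; edgeR junction test, adjusted p = 0.015), with no overlap of the groups. In Zfp316 a junction from exon 6 to an unannotated acceptor moved from 33, 17 and 22 reads to 0, 0 and 1 (edgeR adjusted p = 0.044). Both calls were lost in 5 of the 6 fits without 1 library. Zfp869, the neighbour of Zfp930 that rose, lost an unannotated junction that skips its 61-bp exon 3. It joins annotated sites in a new pairing and held only 0.436% of its cluster in control. It had 8, 1 and 4 reads in control and 0, 0 and 0 in cKO. This loss met no test (edgeR junction test, adjusted p = 0.27). The joined bases of Zfp930 are shown because the junction is annotated and was nearly absent in cKO, with exon 2 in lower case and exon 4 in capitals.
Zfp930 exon 2 to exon 4: acctcgttgctatagGCATAAAGGAAGTCT

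Zfp385b, which was not called at gene level, held the most reads on new junctions, 252 on 5 junctions. They included a 111-bp exon in intron 3 (chr2:77644092-77644202, minus strand) with 22, 25 and 33 reads at its acceptor and 19, 27 and 39 at its donor in cKO. Its inclusion was low at 4.21%, 7.58% and 8.61%, against a limit of 0.235% from 0 control reads. Zfp160 gained a 57-bp exon in intron 4 (chr17:21024593-21024649, plus strand) with an inclusion of 12.3% ± 5.7 in cKO (SD, n = 3) and 0 reads in control. Of the other genes with many new reads, Zfp287 had 129 and Zfp947 112. Those of Zfp287 lie on annotated introns. The new junctions of Zfp947 took only 0.0317% to 0.136% of their cluster (edgeR junction test, adjusted p from 0.085 to 0.45). That cluster had 19906 control reads, where the gene had a mean of 509.83 counts.

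The genomic neighbourhood was described from the annotation. Of the 295 genes, 74 lie on chromosome 7, 34 on chromosome 17, 23 on chromosome 8 and 21 on chromosome 13. With gaps of under 1 Mb between neighbours, 131 genes fall into 14 runs of 5 or more, and 100 genes lie alone. The longest run, 18 genes of which 17 have a KRAB box (chr17:21008903-23599487), had 0 calls in the edgeR test and 16 new junctions in 9 genes. A run of 13 KRAB genes (chr13:67038596-67827002) held Zfp874a, which rose, and 9 new junctions in 6 genes. Runs of 13 genes each on chromosome 7 (from 24081924 and from 29768552) had 1 new junction each. How reads that match several of these similar genes were counted is not given in the sources used here, and values of neighbours with near-identical sequence are uncertain.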

How the data were processed

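For 3 control and 3 cKO libraries the authors deposited a table of raw counts by gene, without normalization, and for each library a list of splice junctions made by TopHat per the file headers, whose count is the number of reads across the junction. TopHat2 2.1.0, HTSeq 0.6.0 and the build mm10 are named in the submitters' processing notes. Which annotation and strand setting were used, and how multiply aligned reads were handled, is not given in the sources used here. The design text counts 3 animals per genotype.

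The gene test used edgeR 4.0.16 (R 4.3.3) with filterByExpr, TMM scaling and the quasi-likelihood test of cKO against control (Benjamini-Hochberg over 16067 genes), and CPM uses TMM-scaled library sizes. A junction that had 10 reads or more in all, spread over 2 libraries or more, was tested with diffSpliceDGE against its cluster, over 112047 junctions. Coordinates are 1-based in mm10, and GENCODE of that build gave exon numbers (in the transcript of the longest protein), splice sites and sequences. All 295 genes were matched, 5 of them through a synonym. KRAB and SCAN were found in translated GENCODE transcripts with profiles (pyhmmer 0.12.3, E-value 1e-05) and fingers with a pattern of cysteines and histidines. Inclusion is the mean of both inclusion junctions over that mean plus the skipping junction. Limits for 0 reads are 3 counts over the total, and reads from amplified cDNA are not independent molecules, so these cover counting error only.

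The members and lists were chosen with earlier results of these data known. Named are the called members, those with the highest levels, the uncalled ones with the largest changes, from each role list the 2 with the smallest p, up to 12 with the most new reads, up to 12 with raised rare junctions, the genes nearest the minimum, called genes of related lists and Rbm17. A gene that this rule takes is not reported here. Other genes were picked once their values were known. The tests were also run on simulated data, and the outcome is not given here. For junctions that simulation used 1 fixed spread and raised junctions only in clusters with many reads. It therefore cannot speak for calls in clusters with few reads. Alternatives were other scalings, count filters, DESeq2 1.42.0, limma-voom (limma 3.58.1), a block for the replicate number, leaving out 1 library at a time, other level minimums and other junction rules.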

Additional observations from a re-analysis of the deposited data

How the results depend on the processing

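Among the Zfp genes, 21 calls became 19 to 31 under other scalings, filters and tests, and DESeq2 called 11 lower genes in place of 7. Without 1 library in turn the calls numbered 7 to 16, with 4 to 12 higher and 3 to 8 lower, and KRAB calls 3 to 7 in place of 13. These fits have fewer samples, and with 2 libraries in an arm the spread is pooled over both arms. The 1 call in the corepressor list became 2 with upper quartile scaling, a 50-count filter or DESeq2, and 0 to 1 without 1 library. Raised rare junctions, 17, numbered 11 at a change of at least 10 points and 6 to 11 without 1 library. Lowered ones, 2, numbered 0 when rare meant under 1%, and 0 to 1 without 1 library. New junctions, 97, numbered 42 with 5 reads in each library, 62 with at least 20 reads, and 99 to 140 without 1 library. Lost ones, 12, numbered 1, 2, and 12 to 28. The rise in unannotated share, 0.82 points, was 0.695 to 0.96 without 1 library and 1.56 as a mean over genes. Zfp106, at -0.03 on the log2 scale and not called, ranged from -0.07 to 0.003 without 1 library, with the changed sign without cKO replicate 3. The cause of these shifts was not tested. Deviations from the group mean correlated at 0.04, -0.06 and 0.02 in same-numbered libraries, and at -0.113 to 0.0961 in the other pairs. Whether the numbers pair the libraries was not tested and cannot be decided from these values. With the replicate number as a block, 26 Zfp genes (17 higher, 9 lower), 2 genes of the corepressor list, 11 raised and 0 lowered rare junctions were called. Of the 97 new junctions 94 could be tested, and 18 of these had an adjusted p under 0.05 in the edgeR junction test.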

Other observations

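Junctions that begin and end inside 1 annotated exon were common in the Zfp genes, whose last exons hold tandem finger repeats. They numbered 442 in 164 of the 295 genes, and 11 of them were new in cKO. They had 1283, 1085 and 859 reads in the libraries of control and 1944, 1519 and 1449 in those of cKO. As a share of all junction reads in Zfp genes this was 0.375%, 0.310% and 0.243% and 0.479%, 0.400% and 0.343%, and the groups overlapped. In 109 of the 442, found in 51 genes, the length was a multiple of 84 bp, which is the length of 1 finger with its linker, and 1 of these was new. Control libraries had 151, 102 and 136 reads on these 109, and cKO libraries 272, 178 and 164. The shares were 0.0441%, 0.0291% and 0.0384% in control and 0.0670%, 0.0469% and 0.0388% in cKO, which overlapped too. Zfp260 holds the only junction of the 442 among the raised rare ones, and its length is not a multiple of 84 bp. It lies within exon 3 of 3 (mm10 chr7:30105410-30107303, plus strand). It had 0, 0 and 0 reads in control and 4, 24 and 18 in cKO, with a cluster share of 49.5% ± 32 (SD, n = 3; edgeR junction test, adjusted p = 0.040), and the call was lost in each of the 6 fits without 1 library. The level of Zfp260 was 65.7 to 91.6 CPM in control and 82.4 to 84.2 in cKO, and its groups overlapped.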
